A study of Homo sapiens with 9 samples.

Results

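The MAL family is a small group of proteins built on the MARVEL fold, a fold of 4 membrane-spanning helices. They take part in sorting membrane proteins into carriers. All probe sets whose only gene symbol on the array platform is MAL, MAL2, MALL, PLLP or MYADM were taken, which gave 6 of 54675 probe sets and 5 of the 19775 genes measured. MYADM had 2 probe sets and each other member had 1. The family was proposed because MAL2 was among the genes that differed most upwards, and MAL among those that differed most downwards, between cells with the miR-200c mimic and cells with the scrambled control. Those differences are therefore given as a description, with no test. MALL, PLLP and MYADM were added by family, with earlier results of these data known, so a low p of theirs is not independent support.

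RNA levels were read on 9 1-colour Affymetrix arrays in Hec50, a human line established from an endometrial cancer. The groups, of 3 arrays each, were mock transfected cells, cells with 60 nM of a scrambled negative control and cells with 60 nM of a miR-200c mimic, both RNAs for 48 hours, and no time is labelled for the mock cells. The question of the study was which genes miR-200c controls in cells of an aggressive cancer. All groups were of a single line. The labels do not tell whether the replicates were grown separately, and the spread that the p-values rest on may be technical.

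MAL itself was found in T lymphocytes and in myelin and is needed for the transport of cargo to the apical surface of polarised epithelial cells through membrane domains rich in sphingolipid and cholesterol. MAL2 acts in transcytosis, in which proteins taken up at the basolateral side are carried to the apical side. PLLP (plasmolipin) is a myelin and epithelial protein of endosomes and apical membranes, MALL (also called BENE) binds caveolin-1, and MYADM sits in rafts and helps to place the GTPase RAC1 at the membrane. miR-200c is a microRNA of epithelial cells that lowers the repressors ZEB1 and ZEB2, which bind E-box sequences in promoters of epithelial genes.

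The sequence below is the 3p arm of human miR-200c from RefSeq (GRCh38.p14, chr12:6963742-6963764, plus strand), shown because it is the microRNA for which the mimic is named, with the seed, bases 2 to 8, in capitals. The seed was the same in miR-200b-3p and miR-429, and that of miR-200a-3p and miR-141-3p differed. Which arm the mimic carries is not said in the labels.
hsa-miR-200c-3p: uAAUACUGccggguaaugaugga
hsa-miR-141-3p: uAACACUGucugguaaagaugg

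Promoter windows of RefSeq (GRCh38.p14, 250 bases before to 50 after the start of the gene) were matched by symbol for 4 of the 5 members, in 7 windows. MAL2 had no window, so its promoter was not searched. CACCTG, the E-box that ZEB proteins are known to bind, was searched on both strands (its reverse is CAGGTG), together with the shorter CACCT (reverse AGGTG), which lies within it. CACCTG stood in 20.6% and CACCT in 51.6% of 35116 promoter windows of the same length. Among the 7 windows CACCTG was found only in that of PLLP, once, with its first base at -27 from the start, in capitals below (chr16:57284623-57284922, minus strand). MAL, whose window is shown beside it because its RNA differed in the opposite direction (chr2:95025458-95025757, plus strand), had no CACCTG and held CACCT once, on the minus strand at -219. CACCT also stood in a window of MALL (at -34) and in a window of MYADM (at -82), both on the minus strand. These matches describe the letters of the windows and are not binding sites, and a window without a match says nothing about the factor.
PLLP promoter: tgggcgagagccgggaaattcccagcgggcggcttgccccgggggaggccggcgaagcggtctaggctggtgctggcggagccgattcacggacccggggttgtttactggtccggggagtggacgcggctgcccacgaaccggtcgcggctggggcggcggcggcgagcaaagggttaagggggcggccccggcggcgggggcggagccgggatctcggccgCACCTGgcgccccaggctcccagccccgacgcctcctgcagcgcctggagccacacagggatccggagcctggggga
MAL promoter: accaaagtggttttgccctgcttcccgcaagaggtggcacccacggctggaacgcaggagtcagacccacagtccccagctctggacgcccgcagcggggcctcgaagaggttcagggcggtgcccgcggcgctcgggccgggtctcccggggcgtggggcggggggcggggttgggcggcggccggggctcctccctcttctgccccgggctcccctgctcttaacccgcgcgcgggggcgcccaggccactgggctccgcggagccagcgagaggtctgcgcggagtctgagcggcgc

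Values are log2 expression with the median of the 9 arrays set to 0 in every probe set by the authors, and they give differences between arrays but no levels. Of the ZEB1 probe sets, 3 of 4 were lower with the mimic than in the scrambled control (log2 change -1.59, -1.57 and -0.65, limma adjusted p at most 0.00118), and the fourth was at -0.17 (adjusted p = 0.419). CDH1, the E-cadherin gene, rose by 3.26 (SE 0.12) on the probe set of its higher level class. After quantile normalization of the centred values this rise was 1.96. The other CDH1 probe set rose by 0.58 (SE 0.08), and the mean of both by 1.92. Of 10 markers of an endometrial epithelial line, 5 had a level of 8 or more on the log2 scale (KRT7, KRT8, KRT18, PAX8 and EPCAM) and 5 lay from 4 to 8. Over all genes 47.05% were at 8 or more, and MOG, a marker of myelinating glia, was too, so a high level does not show that a gene was expressed. The level of 1 probe set cannot be set against that of another. A control for RNA integrity moved with the groups: the centred difference of the 3' and 5' probe sets of ACTB lay between -0.207 and -0.157 in mock, between 0.0629 and 0.136 in scrambled control and between -0.0468 and 0.112 in mimic arrays, and its part in the results was not tested. That of GAPDH overlapped between all groups.

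MAL2, the transcytosis protein, had the largest rise of the family with the mimic. On the centred log2 scale it was at -0.35, -0.29 and -0.01 in the mock arrays, at 0, -0.17 and 0.04 in the scrambled control arrays and at 1.61, 1.52 and 1.69 in the mimic arrays. The mimic arrays stood above both other groups, which overlapped each other. Arrays were separated in 29.6% of all genes for mimic against scrambled control and in 34.2% for mimic against mock. The means were -0.21 ± 0.18, -0.04 ± 0.11 and 1.61 ± 0.08 (SD, n = 3). MAL2 was thereby 3.14-fold higher with the mimic than in the scrambled control (log2 change 1.65, SE 0.09) and 3.54-fold higher than in mock (1.82, SE 0.09), and the scrambled control differed from mock by 0.17 (SE 0.09). After quantile normalization the first of these changes was 1.20. Its median over the arrays lay from 4 to 8 on the log2 scale.

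PLLP, the plasmolipin gene, rose with the mimic as well. The mock arrays were at 0.05, 0 and -0.002, the scrambled control arrays at -0.15, -0.20 and -0.07, and the mimic arrays at 0.88, 0.75 and 0.73 on the centred log2 scale. All 3 groups were apart from each other, with the scrambled control lowest and the mimic highest. Over all genes 29.6% were so separated for mimic against scrambled control. The share was 34.2% for mimic against mock and 30% for scrambled control against mock. PLLP was 1.90-fold higher with the mimic than in the scrambled control (log2 change 0.93, SE 0.05, limma adjusted p = 1.68e-06) and 1.71-fold higher than in mock (0.77, SE 0.05, adjusted p = 6.52e-06). The scrambled control was at -0.15 against mock (SE 0.05, adjusted p = 0.111), and this passed after quantile normalization (adjusted p = 0.0435) or when the fit held only genes with a median of at least 8 (0.0485). Its promoter window is the one above that holds CACCTG, as do 20.6% of all promoter windows. A link between this match and the rise was not tested.

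MAL, the founding member and a raft protein of apical transport, went the other way. Its mock arrays were at 0.09, 0.27 and 0.15, its scrambled control arrays at 0, 0.16 and -0.26 and its mimic arrays at -1.17, -1.22 and -0.94 on the centred log2 scale. The mimic arrays lay below all others, and the scrambled control arrays were the most spread (SD 0.21) and overlapped mock. Separation of the mimic arrays from scrambled control held in 29.6% of all genes, and from mock in 34.2%. MAL was 2.10-fold lower with the mimic than in the scrambled control (log2 change -1.07, SE 0.10) and 2.43-fold lower than in mock (-1.28, SE 0.10), and the scrambled control was at -0.21 against mock (SE 0.10). Its median level was 8 or more.

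**Figure D1:**
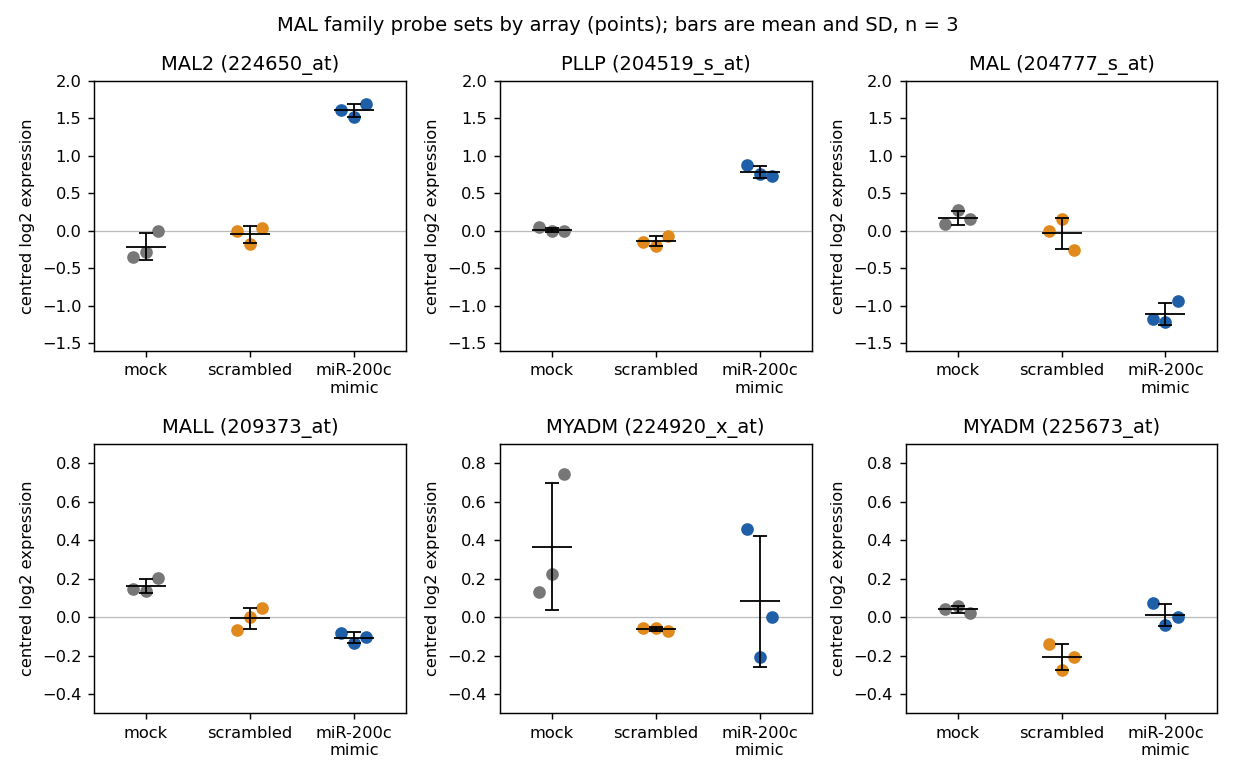
Centred log2 expression (vertical axis) of the 6 MAL family probe sets in each of the 9 arrays, grouped by mock, scrambled control and miR-200c mimic; points are arrays and bars the mean and SD (n = 3), and the upper row has a wider axis than the lower. MAL2 and PLLP are highest and MAL is lowest in the 3 mimic arrays, while MALL and MYADM move within a narrower range.

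MALL, the caveolin-binding relative, changed less. It was at 0.15, 0.13 and 0.20 in mock, at -0.07, 0 and 0.05 in the scrambled control and at -0.08, -0.14 and -0.10 in the mimic arrays on the centred log2 scale. The groups did not overlap, and the order was mock, scrambled control, mimic from high to low. Arrays of 1 group lay wholly beyond those of the other in 29.6% of all genes for mimic against scrambled control, in 34.2% for mimic against mock and in 30% for scrambled control against mock. MALL was 1.20-fold lower with the mimic than in mock (log2 change -0.27, SE 0.05, limma adjusted p = 0.0022). Against the scrambled control it was at -0.10 (SE 0.05, adjusted p = 0.194, 95% interval of the difference -0.20 to 0.001). The scrambled control was at -0.17 against mock (SE 0.05, adjusted p = 0.0518), which passed after quantile normalization (adjusted p = 0.0436) or when the fit held only genes with a median of at least 8 (0.016). In the ACTB values above the mock arrays also stood apart from both other groups. The part of those values in the differences of MALL from mock was not tested.

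MYADM, the raft protein linked to RAC1, was read by 2 probe sets that differed in spread. Probe set 225673_at was at 0.04, 0.06 and 0.02 in mock, at -0.14, -0.28 and -0.21 in the scrambled control and at 0.07, -0.04 and 0 in the mimic arrays. Here the scrambled control was below both other groups, which overlapped. The share of all probe sets separated in this way was not counted. In the fit over all probe sets, 8.66%, 12.1% and 4.07% passed for mimic against scrambled control, mimic against mock and scrambled control against mock. There 225673_at rose with the mimic against the scrambled control (log2 change 0.22, SE 0.06, limma adjusted p = 0.0369). It was lower with the scrambled control than in mock (-0.25, SE 0.06, adjusted p = 0.0378), and the mimic was at -0.03 against mock (SE 0.06, adjusted p = 0.805). Probe set 224920_x_at was at 0.13, 0.22 and 0.74 in mock, at -0.05, -0.05 and -0.07 in the scrambled control and at 0.46, -0.21 and 0 in the mimic arrays. Mock replicate 3 and mimic replicate 1 stood apart in it, and it did not pass in any comparison (adjusted p from 0.213 to 0.713). The name of this probe set ends in _x_at, with which the maker marks probes that may also bind other transcripts.

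With both probe sets averaged, MYADM was at 0.18 with the mimic against the scrambled control (SE 0.10, adjusted p = 0.282), at -0.16 against mock (SE 0.10, adjusted p = 0.328) and at -0.34 for the scrambled control against mock (SE 0.10, adjusted p = 0.0633). The last passed without mock replicate 3 and mimic replicate 1 (-0.25, adjusted p = 0.0442, an alternative chosen after seeing the data), without mimic replicate 1 alone (adjusted p = 0.028) and without mimic replicate 2 (0.0453).

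**Figure D2:**
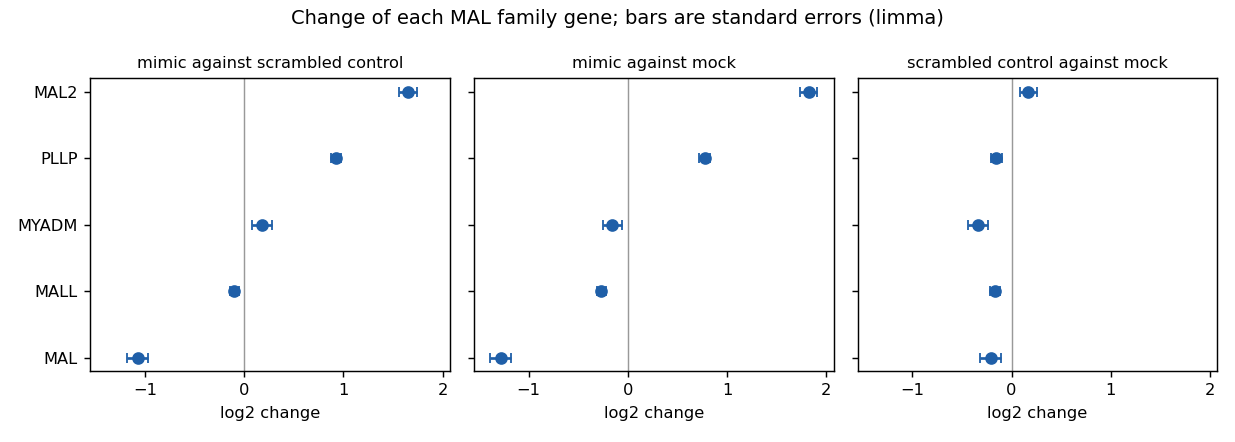
Log2 change (horizontal axis) of each MAL family gene in the 3 comparisons; points are changes fitted with limma on all 9 arrays and bars are standard errors. MAL2 at 1.65 and MAL at -1.07 mark the ends of the family for mimic against scrambled control, and all 5 genes lie between -0.34 and 0.17 for scrambled control against mock.

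The comparisons of the mimic with either control share the mimic arrays, so agreement between them is no separate evidence. Of the 3 members added by family, PLLP passed in mimic against scrambled control and PLLP and MALL in mimic against mock, where 14.3% and 18.2% of all genes passed. In scrambled control against mock 0 of these 3 passed by limma over all genes, where 7.77% of all genes did. Their unadjusted limma p was 0.0159 for PLLP, 0.0041 for MALL and 0.0059 for MYADM. The share of all genes with an unadjusted p under 0.05 was not counted, so no excess can be read from these values. The number of genes called in that comparison fell from 1536 to 726, 782 and 965 without mock replicate 1, 2 or 3, and to 962, 962 and 751 without scrambled replicate 1, 2 or 3. Ordered by log2 change against the scrambled control, MAL2 was 5 from the top and MAL 4 from the bottom of 19775 genes, which is how the family came to be chosen, and PLLP was 54 from the top. In all, 44 genes rose and 8 fell by at least 2-fold with an adjusted p under 0.05. Over the 9 arrays MAL2 and PLLP followed each other (Pearson r = 0.958) and MAL ran opposite to both (r = -0.969 with MAL2 and -0.942 with PLLP), values that mostly restate the step between the mimic and the other 6 arrays. MALL had an r of 0.79 with MAL, -0.77 with MAL2 and -0.63 with PLLP. MYADM had an r of 0.02 with MAL2, 0.07 with MAL, 0.18 with PLLP and 0.52 with MALL.

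**Figure D3:**
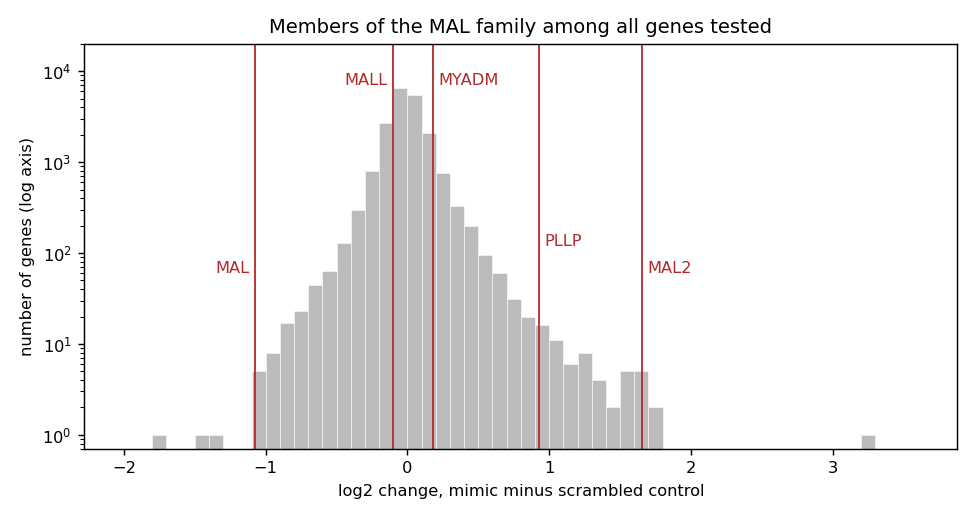
Number of genes (vertical log axis) by log2 change for mimic minus scrambled control (horizontal axis) over 19775 genes, with the 5 members as lines. MALL and MYADM lie in the central mass, PLLP at 0.93 and MAL2 at 1.65 in the upper tail and MAL at -1.07 in the lower tail.

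The genes whose 9 values were most like those of MAL2 were CDS1, an enzyme of phospholipid synthesis (Pearson r = 0.996), the nuclear receptor corepressor gene LCOR (0.995), the antisense RNA gene UBAC2-AS1 (0.994), the phosphoinositide phosphatase gene INPP4B (0.994) and PRRG4 (0.993). They differed in size, from 1.62 for CDS1 (SE 0.06) to 0.43 for LCOR (SE 0.05) on the log2 scale against the scrambled control. For MAL they were the repressor gene ZHX2 (r = 0.992), the guidance ligand gene SLIT3 (0.986), the palmitoyltransferase gene ZDHHC9 (0.986), LZTS1 (0.985) and the corepressor gene SIN3B (0.983). ZHX2 was at -0.56 (SE 0.07) and SIN3B at -0.19 (SE 0.04) against the scrambled control. An r over 0.95 was reached by 248 genes with MAL2 and by 140 with MAL, as the mimic arrays stand apart from the other 6, so the likeness is not particular to these names.

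Other genes with a MARVEL fold were taken as the wider family, from a list chosen with earlier results of these arrays known. Against the scrambled control, 7 of the 22 measured rose with the mimic, 3 fell and 12 did not pass, beside 7.47% higher and 6.86% lower over all genes. Over the alternatives 6 to 8 were higher and 1 or 2 lower. The median log2 change of the 22 was 0.04, against -0.01 over all genes. MARVELD2, which encodes tricellulin of tight junctions where 3 cells meet, rose by 0.83 (SE 0.07, limma adjusted p = 3.15e-05, 2 of 2 probe sets). CMTM4, a membrane protein that stabilises the immune ligand PD-L1 together with CMTM6, rose by 0.48 (SE 0.05, 3 of 3 probe sets), and the vesicle protein gene SYPL1 by 0.37 (SE 0.05). CMTM6 was at -0.004 (adjusted p = 0.97). MARVELD3, a further tight junction gene picked out after its values were seen, was at 1.33, 0.84 and 2.38 in the mimic arrays and between -0.35 and 0.06 in the other 6, and rose by 1.52 (SE 0.29, adjusted p = 0.00447) on 1 of its 3 probe sets, or by 0.66 with the mean of all 3 and by 1.01 after quantile normalization. OCLN, the occludin gene, also named after its values were seen, rose by 0.20 (SE 0.05, adjusted p = 0.0279).

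Of the lower genes of this group, the synaptogyrin gene SYNGR1 was at -0.30 (SE 0.05, adjusted p = 0.00151), SYPL2 at -0.24 (SE 0.06) and CMTM7 at -0.15 (SE 0.04, adjusted p = 0.0415). SYNGR1 no longer passed when all its probe sets were averaged (-0.13, adjusted p = 0.0954), SYPL2 did not without scrambled replicate 2 (adjusted p = 0.0541), and CMTM7 did not in 13 of 15 alternatives (adjusted p from 0.0136 to 0.131). Against mock 6 were higher and 2 lower of the 22, beside 8.14% and 10.1% of all genes. MARVELD2 was at 0.87 (SE 0.07), CMTM4 at 0.53 (SE 0.05) and SYNGR1 at -0.44 (SE 0.05). The probe sets of SYNGR1 disagreed against mock, with 2 called lower and 1 called higher (0.25, limma adjusted p = 0.0368 over all probe sets). CMTM7 was at -0.23 against mock (SE 0.04, adjusted p = 0.00402), and SYPL2 did not pass there (-0.08, SE 0.06, adjusted p = 0.404). For scrambled control against mock limma called 0 of the 22 higher and 1 lower, beside 2.63% and 5.14% of all genes. At an unadjusted p under 0.05 the counts of the 22 were 1 and 5. The share of all genes at that threshold was not counted, so no excess can be read from them.

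**Figure D4:**
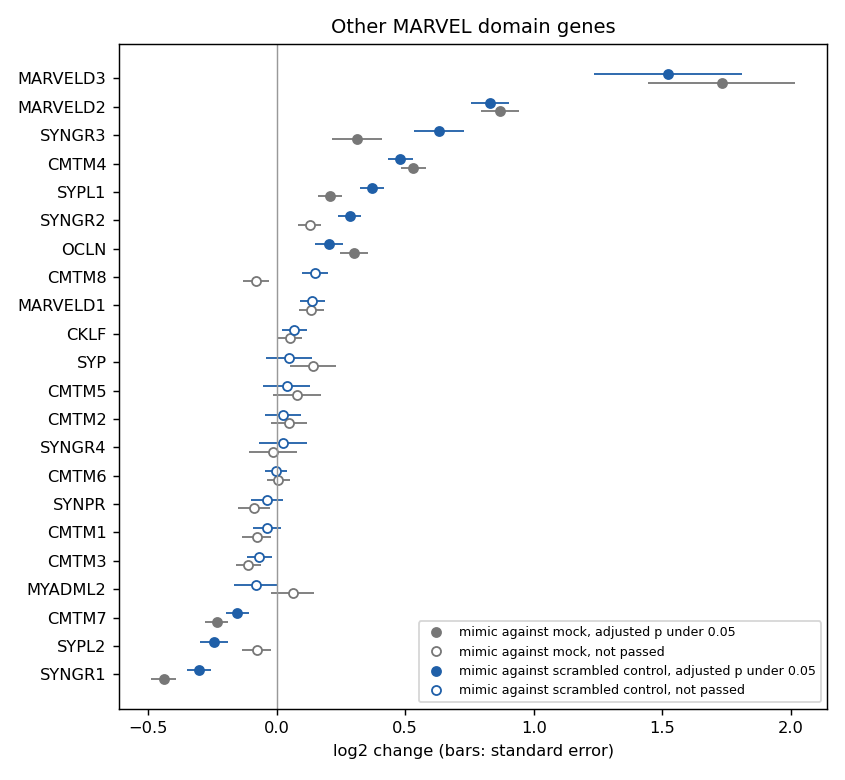
Log2 change (horizontal axis) of 22 other genes with a MARVEL fold for the mimic against the scrambled control (blue) and against mock (grey); filled points have a limma adjusted p under 0.05, and bars are standard errors. MARVELD3 and MARVELD2 lie furthest right, with SYNGR1 furthest left.

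Of 9 genes known as partners, effectors or cargo of the family, 2 rose with the mimic against the scrambled control, 1 fell and 6 missed the threshold, beside 7.47% higher and 6.86% lower over all genes. LCK, the T lymphocyte kinase that MAL carries to the plasma membrane, was at 0.83, 0.69 and 0.86 in the mimic arrays and between -0.30 and 0.05 in the other 6, and rose by 0.99 (SE 0.07, limma adjusted p = 6.77e-06) on both of its probe sets. MUC1, an apical mucin that binds MAL2, rose by 0.61 (SE 0.06, 3 of 3 probe sets). TPD52L1, a relative of the MAL2 partner TPD52, fell by 0.39 (SE 0.05), and TPD52 itself was at 0.08 (adjusted p = 0.31). The formin gene INF2, which works with MAL2 in transcytosis, was at 0.17 (SE 0.12, adjusted p = 0.41). The median of the 9 was 0.08. Against mock LCK was at 0.82 (SE 0.07) and MUC1 at 0.48 (SE 0.06).

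Among 19 genes of rafts, caveolae and sphingolipid synthesis, 4 rose with the mimic against the scrambled control, 1 fell and 14 missed the threshold, with a median of 0.03. Over all genes 7.47% were higher and 6.86% lower. FA2H, which hydroxylates the fatty acids of sphingolipids, rose by 0.76 (SE 0.05), the caveolin gene CAV2 by 0.72 (SE 0.06, 2 of 3 probe sets) and the sphingomyelin synthase gene SGMS2 by 0.37 (SE 0.06). UGCG, the glucosylceramide synthase gene, fell by 0.43 (SE 0.05, 3 of 3 probe sets). The highest adjusted p of these 4 was 0.00243, and CAV1, the caveolin that MALL binds, was at -0.04 (adjusted p = 0.704). FA2H was lower in the scrambled control than in mock (-0.31, limma adjusted p = 0.00769), and against mock the mimic stood at 0.45. CAV2 was at -0.21 in the scrambled control against mock (adjusted p = 0.0438), a call that ended in 11 of 15 alternatives (adjusted p from 0.0151 to 0.191), and at 0.51 with the mimic against mock.

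Among 51 genes of apical and recycling vesicle traffic, 7 rose in that comparison, 5 fell and 39 missed the threshold, with a median of -0.03, beside the same 7.47% and 6.86% of all genes. RAB11FIP1, an effector of the recycling GTPase RAB11, was at 0.51, 0.43 and 0.50 in the mimic arrays, at -0.61, -0.58 and -0.78 in the scrambled control and at 0, -0.07 and 0 in mock. It rose by 1.13 against the scrambled control (SE 0.06) and by 0.50 against mock (SE 0.06), where its call ended after quantile normalization (adjusted p = 0.055), and the scrambled control was at -0.63 against mock. The motor gene MYO5C rose by 0.60 (SE 0.05) and RAB17, a GTPase of transcytosis in epithelial cells, by 0.38 (SE 0.06). RAB11FIP2, a second RAB11 effector, fell by 0.65 (SE 0.05, 2 of 2 probe sets), the fusion gene SNAP23 by 0.40 (SE 0.06, 4 of 4 probe sets) and SYTL2, an effector of RAB27, by 0.24 (SE 0.05). The limma adjusted p of these 6 was at most 0.00534. Against mock the list held 11 higher and 10 lower, beside 8.14% and 10.1% of all genes, with SYTL2 at -0.64 (SE 0.05).

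MAL, PLLP and LCK also mark other cell types, whose markers were read in full, against a background of 7.47% of all genes higher and 6.86% lower with the mimic than in scrambled arrays. Of 12 T lymphocyte markers LCK rose with the mimic against the scrambled control, CD247 was lower (-0.21, SE 0.05, limma adjusted p = 0.0094) and 10 did not pass, among them CD3D (0.03), CD3G (-0.02) and CD2 (0.08). Of 10 measured markers of myelinating glia MBP was higher (0.37, SE 0.04, on 3 of 9 probe sets), UGT8 was lower (-0.25, SE 0.06) and 8 did not pass, among them MOG (-0.10) and MAG (-0.06). Against mock neither CD247 (-0.02, adjusted p = 0.867) nor UGT8 (-0.10, adjusted p = 0.285) passed, and CD247 was higher in the scrambled control than in mock (0.20, adjusted p = 0.026). Endothelial markers held 0 of 8 called by limma and also 0 at an unadjusted p under 0.05, and stromal markers 1 of 7, ACTA2 at -0.23 (SE 0.06, adjusted p = 0.0185), whose call ended in 4 of 14 alternatives. The medians of these lists were -0.001 for T lymphocytes, 0.004 for glia, 0.01 for endothelium and -0.04 for stroma. Because the values are centred, a marker that is absent cannot be told from one that is steady. Endometrial line markers held 5 higher and 1 lower of 10, with EPCAM at 1.06 (SE 0.05), KRT18 at 0.50 (SE 0.05) and PAX8 at -0.21 (SE 0.05, adjusted p = 0.0221, lost in 5 of 15 alternatives).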

How the data were processed

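Per the labels' protocols, Trizol was used to isolate total RNA, which was biotin-labelled for Affymetrix arrays. The deposited values are on a log2 scale, with a median of 0 over the 9 arrays in 100% of probe sets. The authors' probe summary and normalization were not given in the sources used here. In 48.89% of probe sets more than 1 value was exactly 0. The members and lists were chosen with earlier results of these data known. Names came from the platform annotation, which can be old; all 5 members had the same symbol by Entrez identifier in RefSeq (GRCh38.p14), used for names, neighbours and sequences. Leaving out 62 control probe sets, 41091 with 1 symbol gave 19775 genes. Of a gene's probe sets, those in its highest level class were averaged. Classes (8 or more, 4 to 8, below 4 on the log2 scale) came from the rounding of single-precision storage, and were recovered for 97.8% of 6000 simulated probe sets. The simulated noise was normal, and ties at 0 like those in 48.89% of the real probe sets were not simulated.

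In R 4.3.3, limma 3.58.1 (lmFit and eBayes, two-sided) estimated the mean of each group from the 9 arrays together, over all genes, and again over 54613 probe sets; calls have a Benjamini-Hochberg adjusted p under 0.05. In a simulated comparison of mimic and scrambled control (19775 genes) 85.7%, 99.7% and 100% of changes of 0.5, 1 and 2 were called and 5% of calls were false. Its noise was normal and independent between arrays, with each gene's own spread, and it held fewer changed genes than the data had calls. Named genes are the members, ZEB1 and CDH1, up to 3 higher and 3 lower called genes of smallest p per list in mimic against scrambled control, and the 5 most correlated genes for MAL2 and MAL. Alternatives were quantile normalization of the centred values, the mean of all probe sets, genes at 8 or more and 2 groups only. Others were the replicate number as a block, and each array left out. The number of arrays limits the precision.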

Additional observations from a re-analysis of the deposited data

How the results depend on the processing

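No change reversed in direction under any of the 15 alternatives, which covered the members, ZEB1, CDH1, MARVELD3, the list genes named by rule and the number of genes called. The genes most like MAL2 and MAL, the neighbours and the other genes named in passing were not run under them. The list genes were run for the comparisons with the mimic, and FA2H, CAV2 and RAB11FIP1 also for scrambled control against mock. Quantile normalization was run on the centred values and gave all arrays the same distribution of them. After it MAL2 was at 1.20 against the scrambled control and 1.42 against mock, and MAL at -0.86 and -1.09. This step acts on differences and not on levels, and the cause of the smaller changes was not tested. For scrambled control against mock, quantile normalization gave calls for PLLP (-0.17, adjusted p = 0.0435), MALL (-0.17, 0.0436) and MYADM (-0.38, 0.0353), and so did a fit restricted to genes with a median of at least 8, where fewer genes were tested (PLLP -0.15, 0.0485; MALL -0.17, 0.016; MYADM -0.34, 0.0287). MYADM also passed with only the 2 groups (-0.34, adjusted p = 0.0369) and without mock replicate 3 and mimic replicate 1 (-0.25, 0.0442), and with 1 array left out it ranged from -0.39 to -0.25; the cause was not tested. Leaving out 1 array gave 726 to 1603 genes for scrambled control against mock, and 974 were called without mock replicate 3 and mimic replicate 1. In that restricted fit MAL2 has no value. With the replicate number as a block, PLLP was at 0.93 (adjusted p = 1.86e-05), MALL at -0.10 (0.24) and MYADM at 0.18 (0.284) against the scrambled control, 2516 genes were called in place of 2835 (3245 for mimic against mock and 1176 for scrambled control against mock), and no member's call changed. Deviations of same-numbered arrays from their group means had correlations of -0.15 to 0.112, so no strong shared deviation was seen. Arrays of unlike number were not compared, and whether equal numbers mark arrays handled together cannot be told from these values. CMTM7, PAX8, ACTA2, SYNGR1, SYPL2 and, against mock, SYPL1, RAB11FIP1 and ACTA2, and CAV2 for scrambled control against mock, lost their call in 1 or more alternatives. In the simulation changes of 0.5 on the log2 scale were missed more often than larger ones. Changes under 0.5 were not simulated, and 3 arrays per group may miss them.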

Other observations

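The genes that lie next to the members on the chromosomes, 3 protein-coding genes on each side in RefSeq order, gave a view of their surroundings. Of 30 such neighbours 21 were measured, and with the mimic against the scrambled control 2 were higher, 3 lower and 16 did not pass by limma over all genes, where 14.3% of all genes passed. ARL2BP, a binding protein of the small GTPase ARL2 and the direct neighbour of PLLP, was lower by -0.56 on the log2 scale (SE 0.06, adjusted p = 6.95e-05) where PLLP was higher by 0.93, and CX3CL1, a chemokine gene on the other side of PLLP, rose by 0.21 (SE 0.04, adjusted p = 0.00795). RSPRY1, beyond ARL2BP, was at -0.16 (SE 0.05, adjusted p = 0.0395). Near MAL2 the decoy receptor gene TNFRSF11B was at -0.51 (SE 0.05, adjusted p = 3.21e-05), and the direct neighbours COLEC10 and CCN3 were at -0.13 and -0.14 (adjusted p = 0.246 and 0.313). MRPS5, beside MAL, was at -0.01 (SE 0.05), and SOWAHC, near MALL, was higher by 0.34 (SE 0.07, adjusted p = 0.00703). Against mock SOWAHC was at -0.01 with the mimic (adjusted p = 0.958) and at -0.35 in the scrambled control (adjusted p = 0.0141). These neighbours were chosen after the values of the members were seen.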
